A study of Mus musculus with 16 samples.

Results

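NRF2, encoded by Nfe2l2, is the transcription factor that switches on antioxidant and detoxification genes in the liver. KEAP1 binds NRF2 and presents it to a CUL3 ubiquitin ligase for degradation, and oxidants or electrophiles that modify cysteines of KEAP1 let NRF2 accumulate, pair with a small MAF protein and bind antioxidant response elements. The genes described here are 9 of the 41079 genes of the deposited count table, taken by symbol: Nfe2l2 and Keap1, the glutathione genes Gclc, Gclm and Slc7a11, the thioredoxin-linked genes Txnrd1 and Srxn1, the quinone reductase Nqo1 and the haem oxygenase Hmox1. Liver RNA was sequenced from C57BL/6J mice aged 20 to 22 months, 4 in each of the groups male CRE-, male LKO, female CRE- and female LKO. All 16 mice carried floxed alleles of Gcgr, the glucagon receptor gene. LKO mice also carried Cre under the albumin promoter, which acts in hepatocytes and deletes several exons of Gcgr there, while CRE- controls carried no Cre. The Cre transgene and the loss of hepatic glucagon signalling therefore came together in LKO mice and cannot be told apart. Each library held 33268424 to 56488920 counted reads, and values are given as CPM, the count scaled to library size and composition, where 1 CPM stood for 34.6 reads or more. Fold changes are given as log2 of LKO over CRE- with their standard error (SE), so 1 means a doubling. LKO mice were compared with CRE- mice of the same sex, and the difference between the sexes in that effect was also tested. All 16742 genes that passed a filter on low counts were tested together by edgeR's quasi-likelihood test, and genes with a Benjamini-Hochberg (BH) adjusted p under 0.05, the expected share of false calls, are called DEGs. All 9 genes of the NRF2 group passed the filter.

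The labels were first set against genes that should follow them. Gcgr was at 190.4, 193, 127 and 189.6 CPM in male CRE- mice 1 to 4 and at 117, 136, 129.9 and 160.3 CPM in male LKO mice 1 to 4, with overlapping groups. In females Gcgr was at 162, 208, 201 and 180.0 CPM in female CRE- mice 1 to 4 and at 48.8, 132, 119 and 93.6 CPM in female LKO mice 1 to 4, where every LKO mouse was below every CRE- mouse. Reads from undeleted exons of Gcgr also count. Xist, the RNA of the inactive X chromosome, was at 137 CPM or more in each female and at 0.243 CPM or less in each male, and the Y-linked Ddx3y was at 0 in every female and at 38.5 CPM or more in every male. Alb, which encodes albumin and defines hepatocytes, was the most abundant of 7 hepatocyte markers in all groups, with 41687 CPM or more in every library.

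Male LKO replicate 1 stood apart from the other males in genes whose liver expression depends on sex. Sult2a1, a sulfotransferase of female mouse liver, was at 116 CPM in this mouse, at 0 to 0.267 CPM in the other 7 males and at 239 to 1028 CPM in the 8 females. Cyp4a12a, a cytochrome P450 of male mouse liver, was at 3.47 CPM in this mouse, at 78.1 to 206 CPM in the other males and at 0.0444 to 0.324 CPM in females. Its Xist was at 0.0514 CPM and its Ddx3y at 58.0 CPM, both within the male range. The library was also the highest of its group for 6 of the 9 NRF2 genes, so male values of these genes are also given without it.

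None of the 9 genes passed the threshold in males or in females. In males, 0 of 9 were DEGs, against 0.454% of all genes tested, while 3 of 9, Gclc, Gclm and Slc7a11, had an unadjusted p under 0.05, all higher in LKO, against 9.53% of all genes. Of the other tools, DESeq2 called 1 of the 9 in males (Slc7a11), against 339 of all 16742 genes, and limma-voom with sample quality weights called 0, against 148. Female results were 0 of 9 DEGs, against 4.24% of all genes, and 1 of 9 (Slc7a11) with an unadjusted p under 0.05, against 21.4%. DESeq2 again called Slc7a11 alone of the 9, against 1816 of all genes, and limma-voom called 0, against 1976. Log2 fold changes were above 0 for 7 of 9 genes in males, against 49.1% of all genes, with a median of 0.33 against -0.01 over all genes tested. They were above 0 for 6 of 9 in females, against 53.1% of all genes, with a median of 0.16 against 0.04. Without male LKO replicate 1 the male median was 0.03, with 5 of 9 above 0 and 0 of 9 with an unadjusted p under 0.05. In males the only gene with every LKO mouse above every CRE- mouse in CPM was Gclm, a separation seen in 3.57% of all genes, and in females it was Slc7a11, against 5.2%. Separation differed in TPM, a scale per gene length that is defined below. On that scale the male Gclm groups overlapped, and in females Nfe2l2, Gclm and Srxn1 were separate as well as Slc7a11. Shares of all genes are given for CPM only. No gene of the 9 had every LKO mouse below every CRE- mouse in CPM, against 2.92% of all genes in males and 6.42% in females. Among all genes, males had 76 DEGs, 37 higher and 39 lower, and leaving out any 1 of the 8 male libraries gave 26 to 49. Females had 710 DEGs, 350 higher and 360 lower, and the number was 87 without female CRE- replicate 2, 110 without replicate 4, 122 without replicate 3 and 385 without replicate 1. It was 237 without female LKO replicate 1, 404 without replicate 4 and 1310 without replicate 2.

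**Figure D1:**
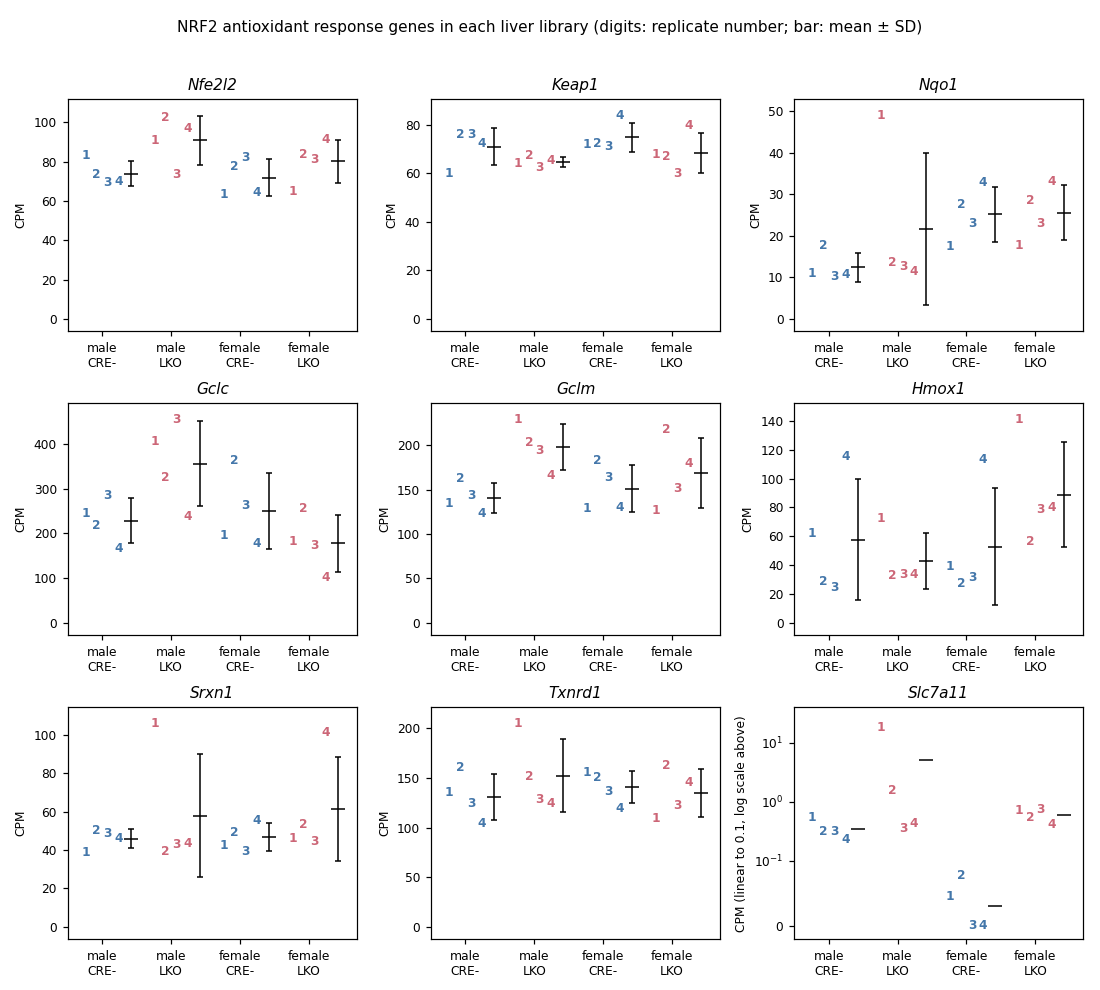
CPM of each of the 9 genes (vertical axis) in each library, by group (horizontal axis); digits are replicate numbers and black marks are the mean ± SD of 4 mice, except for Slc7a11, which has the mean alone and an axis that is linear to 0.1 CPM and logarithmic above. Male LKO replicate 1 lies above the other male LKO mice for Nqo1, Gclm, Hmox1, Srxn1, Txnrd1 and Slc7a11, and the female groups are separate for Slc7a11.

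On a scale per gene length (TPM, which divides by exon length and by the library's total), Gclm and Gclc had the highest means of the 9 over all libraries. TPM lacks CPM's scaling for composition, so the direction between groups can differ between CPM and TPM for the same gene. Gclm averaged 164 ± 38.2 TPM (SD, n = 16) and Gclc 141 ± 55.6 TPM (SD, n = 16), with Gclm above Gclc in 12 of 16 libraries and Gclc above Hmox1 in 11 of 16. In female LKO mice Hmox1 averaged 135 ± 77.5 TPM (SD, n = 4) and Gclc 109 ± 38.4 TPM (SD, n = 4). Over all libraries Hmox1 averaged 81.5 ± 57.2 TPM (SD, n = 16) and was above Txnrd1, at 71.9 ± 15.9 TPM (SD, n = 16), in 6 of 16 libraries. Those neighbours in the order overlapped, whereas Txnrd1 was above Nfe2l2 in 16 of 16 libraries. Nfe2l2 averaged 43.1 ± 8.21 TPM (SD, n = 16) and was above Srxn1 in 14 of 16. Srxn1, at 32.4 ± 14.2 TPM (SD, n = 16), and Keap1, at 32.1 ± 4.21 TPM (SD, n = 16), overlapped, and Srxn1 was the higher in 3 of 16 libraries. Nqo1 averaged 13 ± 7.02 TPM (SD, n = 16) and was below Keap1 in 15 of 16. Slc7a11 was at 0.370 ± 1.10 TPM (SD, n = 16), the lowest of the 9 in each library. The ratio of the highest to the lowest library was 1.5 for Keap1 and 2.06 for Nfe2l2, and reached 5.51 for Nqo1 and 7.86 for Hmox1. Slc7a11 has no such ratio, because its lowest value was 0.

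The transcription factor and its inhibitor varied least. Nfe2l2 (chr2:75505860-75535007, minus strand of GRCm39) was at 83, 73.7, 69.5 and 69.7 CPM in male CRE- mice 1 to 4 and at 90.9, 103, 73.7 and 96.8 CPM in male LKO mice 1 to 4. Male LKO replicates 1, 2 and 4 were above every male CRE- mouse and replicate 3 was not. The male log2 fold change was 0.30 (SE 0.16, edgeR quasi-likelihood BH-adjusted p = 0.568, 3 of 4 LKO mice above the CRE- mean). Female Nfe2l2 was at 63.3, 77.8, 82.2 and 64.6 CPM in female CRE- mice 1 to 4 and at 65.1, 83.5, 81.4 and 91.3 CPM in female LKO mice 1 to 4, and the groups overlapped in CPM. Every female LKO mouse was above every female CRE- mouse for Nfe2l2 in TPM, with means of 47.5 ± 2.26 (SD, n = 4) and 33.9 ± 5.49 (SD, n = 4). Its female log2 fold change was 0.16 (SE 0.16, edgeR quasi-likelihood BH-adjusted p = 0.610, 3 of 4 LKO mice above the CRE- mean). Keap1 (chr9:21141026-21150628, minus strand) encodes the adaptor that marks NRF2 for degradation. Male Keap1 was at 59.9, 75.8, 75.8 and 72.2 CPM in male CRE- mice 1 to 4 and at 63.9, 67.4, 62.4 and 65.1 CPM in male LKO mice 1 to 4. The LKO values lay inside the CRE- range, between CRE- replicate 1 and the other 3 controls, and the log2 fold change was -0.13 (SE 0.13, edgeR quasi-likelihood BH-adjusted p = 0.786, 4 of 4 LKO mice below the CRE- mean). In females Keap1 was at 71.9, 72.2, 71.1 and 83.7 CPM in female CRE- mice 1 to 4 and at 67.7, 66.7, 59.7 and 79.5 CPM in female LKO mice 1 to 4. Female LKO replicates 1, 2 and 3 were below every CRE- mouse and replicate 4 was above 3 of them. The female log2 fold change of Keap1 was -0.13 (SE 0.13, edgeR quasi-likelihood BH-adjusted p = 0.638, 3 of 4 LKO mice below the CRE- mean). In TPM the female means of Keap1 went the other way, at 29.9 ± 1.39 (SD, n = 4) in CRE- and 34.9 ± 5.78 (SD, n = 4) in LKO mice. Most regulation of this pair acts on protein, which was not measured here.

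Gclc and Gclm encode the catalytic and the modifier subunit of glutamate-cysteine ligase, the rate-limiting enzyme of glutathione synthesis. Gclc (chr9:77661817-77701771, plus strand) was at 244, 219, 285 and 167 CPM in male CRE- mice 1 to 4 and at 405, 325, 454 and 238 CPM in male LKO mice 1 to 4. Replicates 1, 2 and 3 of male LKO were above every male control, and replicate 4 was within the control range. Its male log2 fold change was 0.64 (SE 0.29, edgeR quasi-likelihood BH-adjusted p = 0.507, 4 of 4 LKO mice above the CRE- mean). The unadjusted p was 0.0452 by edgeR, and without male LKO replicate 1 the log2 fold change was 0.55. Female Gclc was at 196, 364, 262 and 177 CPM in female CRE- mice 1 to 4 and at 181, 257, 172 and 101 CPM in female LKO mice 1 to 4. The female groups overlapped, with the LKO replicates 3 and 4 lowest and CRE- replicate 2 highest. For Gclc the female log2 fold change was -0.49 (SE 0.29, edgeR quasi-likelihood BH-adjusted p = 0.366, 3 of 4 LKO mice below the CRE- mean). Leaving out female CRE- replicate 2 or female LKO replicate 4 makes this female difference smaller. The sex difference, female effect minus male effect, was -1.12 (SE 0.42, edgeR quasi-likelihood BH-adjusted p = 0.240, LKO above the CRE- mean in 4 of 4 males and 1 of 4 females), with an unadjusted p of 0.0152 by edgeR.

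Gclm (chr3:122039206-122060864, plus strand) was at 135, 163, 143 and 123 CPM in male CRE- mice 1 to 4 and at 229, 203, 194 and 166 CPM in male LKO mice 1 to 4. All 4 male LKO mice were above all 4 male controls in CPM, by a narrow margin between LKO replicate 4 and CRE- replicate 2. The male groups overlapped in TPM, with LKO replicate 4 at 154 and CRE- replicate 3 at 165. The male log2 fold change of Gclm was 0.49 (SE 0.19, edgeR quasi-likelihood BH-adjusted p = 0.388, 4 of 4 LKO mice above the CRE- mean), with an unadjusted p of 0.0193 by edgeR. It was 0.40 without male LKO replicate 1, where the unadjusted p was 0.0635 by edgeR. In females Gclm was at 128, 182, 163 and 130.0 CPM in female CRE- mice 1 to 4 and at 127, 218, 151 and 179.7 CPM in female LKO mice 1 to 4. LKO replicate 2 was highest and LKO replicate 1 lowest of the 8 females, so the CRE- values lay inside the LKO range in CPM. The female groups were separate in TPM, with the lowest LKO mouse at 164 and the highest CRE- mouse at 160. For Gclm the female log2 fold change was 0.16 (SE 0.19, edgeR quasi-likelihood BH-adjusted p = 0.679, 3 of 4 LKO mice above the CRE- mean).

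Slc7a11 (chr3:50319385-50403947, minus strand) encodes xCT, the transporter that brings in cystine for glutathione synthesis in exchange for glutamate, and it is a known target of ATF4 as well as of NRF2. Its reads numbered 26, 14, 12 and 10 in male CRE- mice 1 to 4 and 710, 74, 14 and 16 in male LKO mice 1 to 4. Female libraries had 2, 4, 0 and 0 reads in CRE- mice 1 to 4 and 28, 22, 40 and 14 reads in LKO mice 1 to 4. Because both mates of a read pair were counted, these numbers stand for about 1 fragment per 2 reads. As CPM, Slc7a11 was at 0.527, 0.312, 0.312 and 0.225 CPM in male CRE- mice 1 to 4 and at 18.3, 1.54, 0.348 and 0.432 CPM in male LKO mice 1 to 4. Male LKO replicates 1 and 2 were above every male control, replicates 3 and 4 lay within the control range, and replicate 1 held most of the male LKO reads. The male log2 fold change was 3.89 (SE 1.03, edgeR quasi-likelihood BH-adjusted p = 0.134, 4 of 4 LKO mice above the CRE- mean), with an unadjusted p of 0.00159 by edgeR. Without male LKO replicate 1 it was 1.14, with an adjusted p of 0.694 by the same edgeR quasi-likelihood test with BH adjustment, and 3 of the remaining 3 LKO mice were above the CRE- mean. Summed over mice, read pairs numbered 407 in male LKO and 31 in male CRE- libraries, a ratio to library size of 14.2 (95% exact interval 9.82 to 21.1, for counting error only). With 52 pairs in the remaining 3 LKO mice, the ratio was 2.37 (95% exact interval 1.49 to 3.83).

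Female Slc7a11 was at 0.0444, 0.0779, 0 and 0 CPM in female CRE- mice 1 to 4 and at 0.705, 0.548, 0.732 and 0.405 CPM in female LKO mice 1 to 4. Every female LKO mouse was above every female control, and CRE- replicates 3 and 4 had no read. The female log2 fold change was 4.06 (SE 1.24, edgeR quasi-likelihood BH-adjusted p = 0.0709, 4 of 4 LKO mice above the CRE- mean), with an unadjusted p of 0.00455 by edgeR. Leaving out 1 female library at a time gave log2 fold changes of 3.6996 to 4.9996 and adjusted p-values of 0.0669 to 0.171 by edgeR's quasi-likelihood test with BH adjustment, with every LKO mouse above every control each time. Read pairs numbered 52 in female LKO and 3 in female CRE- libraries, a ratio to library size of 18.01 (95% exact interval 5.83 to 90.1). DESeq2's Wald test with Benjamini-Hochberg adjustment called Slc7a11 in both sexes, with an adjusted p of 0.00280 in males and 0.00327 in females, with 4 of 4 LKO mice above the CRE- mean in each sex. By limma-voom with sample quality weights and BH adjustment the male log2 fold change was 1.5, with an adjusted p of 0.554 and the same 4 of 4 mice. Slc7a11 was thus higher in LKO by its estimate in both sexes, with male LKO replicate 1 holding 710 of the male reads, and the call depended on the fit.

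**Figure D2:**
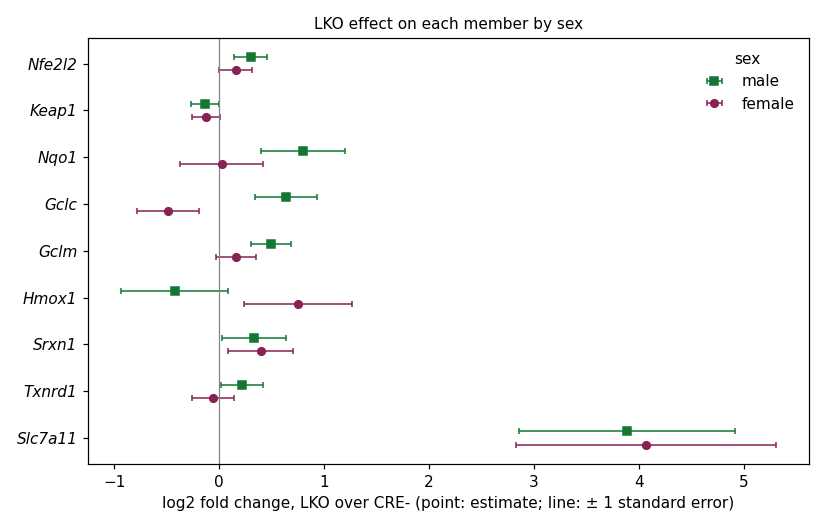
Log2 fold change of LKO over CRE- (horizontal axis) for each of the 9 genes, males as squares and females as circles; lines span 1 standard error on each side. Slc7a11 lies near 4 in both sexes with standard errors above 1, and Gclc, Hmox1 and Txnrd1 lie on opposite sides of 0 in the sexes.

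Txnrd1 and Srxn1 belong to the thioredoxin arm. Txnrd1 (chr10:82669785-82733558, plus strand) encodes the cytosolic thioredoxin reductase, which uses NADPH to reduce thioredoxin. The gene overlaps Eid3 on the same strand, to which 180 reads were assigned over all libraries. Male Txnrd1 was at 135, 160.2, 125 and 104 CPM in male CRE- mice 1 to 4 and at 205, 152, 128 and 124 CPM in male LKO mice 1 to 4. Only LKO replicate 1 was above the controls, and the log2 fold change was 0.22 (SE 0.20, edgeR quasi-likelihood BH-adjusted p = 0.761, 2 of 4 LKO mice above the CRE- mean). Without that mouse it was 0.03. Female Txnrd1 was at 155, 151, 136 and 119.6 CPM in female CRE- mice 1 to 4 and at 109, 162, 122 and 146 CPM in female LKO mice 1 to 4, where LKO mice were both the highest and the lowest. The female log2 fold change was -0.06 (SE 0.20, edgeR quasi-likelihood BH-adjusted p = 0.902, 2 of 4 LKO mice below the CRE- mean). In TPM the female means of Txnrd1 went the other way, at 63.2 ± 12.6 (SD, n = 4) in CRE- and 75.4 ± 5.68 (SD, n = 4) in LKO mice. Srxn1 (chr2:151946738-151953296, plus strand) encodes sulfiredoxin, which restores overoxidised peroxiredoxins. In males Srxn1 was at 38.8, 50.3, 48.8 and 46.1 CPM in male CRE- mice 1 to 4 and at 106, 39.4, 42.9 and 43.5 CPM in male LKO mice 1 to 4. LKO replicate 1 was far above the other 7 males, whose groups overlapped. Srxn1 had a male log2 fold change of 0.33 (SE 0.31, edgeR quasi-likelihood BH-adjusted p = 0.769, 1 of 4 LKO mice above the CRE- mean), and it turned to -0.15 without LKO replicate 1. Female Srxn1 was at 42.3, 49.3, 39.4 and 55.6 CPM in female CRE- mice 1 to 4 and at 46, 53.2, 44.7 and 101 CPM in female LKO mice 1 to 4, with LKO replicate 4 far above the rest. All female LKO mice were above all female CRE- mice for Srxn1 in TPM, the lowest LKO mouse at 29.5 and the highest CRE- mouse at 26.3. For Srxn1 the female log2 fold change was 0.39 (SE 0.31, edgeR quasi-likelihood BH-adjusted p = 0.507, 2 of 4 LKO mice above the CRE- mean), and it was 0.04 without LKO replicate 4.

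Nqo1 (chr8:108114856-108139012, minus strand) encodes NAD(P)H quinone dehydrogenase 1, which reduces quinones and is widely used as a readout of NRF2. Male Nqo1 was at 11, 17.6, 10.3 and 10.6 CPM in male CRE- mice 1 to 4 and at 49, 13.5, 12.6 and 11.3 CPM in male LKO mice 1 to 4. LKO replicate 1 was above every other library of either sex, and the other 3 LKO mice lay within the control range. The male log2 fold change was 0.80 (SE 0.40, edgeR quasi-likelihood BH-adjusted p = 0.554, 3 of 4 LKO mice above the CRE- mean) and was -0.00 without LKO replicate 1. In females Nqo1 was at 17.4, 27.4, 23 and 32.9 CPM in female CRE- mice 1 to 4 and at 17.7, 28.5, 23.1 and 33 CPM in female LKO mice 1 to 4, and the groups covered almost the same range. For Nqo1 the female log2 fold change was 0.02 (SE 0.40, edgeR quasi-likelihood BH-adjusted p = 0.984, 2 of 4 LKO mice above the CRE- mean). Nqo1 thus showed no difference between genotypes beyond the spread between mice, apart from the single male library.

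Hmox1 (chr8:75820246-75827221, plus strand) encodes haem oxygenase 1, which breaks haem down to biliverdin, iron and carbon monoxide and is abundant in macrophages that clear red cells. Male Hmox1 was at 61.8, 29, 24.2 and 115 CPM in male CRE- mice 1 to 4 and at 72, 32.8, 33.5 and 33.2 CPM in male LKO mice 1 to 4. CRE- replicate 4 was highest and CRE- replicate 3 lowest of the males. The male log2 fold change was -0.42 (SE 0.51, edgeR quasi-likelihood BH-adjusted p = 0.822, 3 of 4 LKO mice below the CRE- mean), and it was -0.82 without LKO replicate 1 and turned to 0.16 without CRE- replicate 4. Female Hmox1 was at 39.3, 27.3, 31.2 and 113 CPM in female CRE- mice 1 to 4 and at 141, 56.3, 78.6 and 79.9 CPM in female LKO mice 1 to 4. All LKO mice were above CRE- replicates 1 to 3, while CRE- replicate 4 was above LKO replicates 2 to 4. The female log2 fold change was 0.75 (SE 0.51, edgeR quasi-likelihood BH-adjusted p = 0.432, 4 of 4 LKO mice above the CRE- mean). Without female CRE- replicate 4 it was 1.45, with an adjusted p of 0.122 by edgeR's quasi-likelihood test with BH adjustment and 4 of 4 LKO mice above every remaining control. Female LKO replicate 1, at 141 CPM, was the highest of the females, and leaving it out lowers the female estimate.

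Macrophage markers varied between the same libraries as Hmox1. The summed CPM of 10 Kupffer cell and macrophage markers was 975, 526, 259 and 1484 in male CRE- mice 1 to 4 and 1380.1, 735, 824 and 772 in male LKO mice 1 to 4. In females the sum was 875, 649, 721 and 1505 in CRE- mice 1 to 4 and 4016, 1120.0, 2608 and 1621 in LKO mice 1 to 4. Replicates 4 of both CRE- groups and female LKO replicate 1, the highest 3 libraries for Hmox1, were each the highest of their group in the sum. Of these markers 1 of 10, Adgre1, rose in female LKO mice, against 4.24% of all genes called, and 8 of 10 were higher with an unadjusted p under 0.05, against 21.4%. DESeq2 called 6 of the 10, with 1816 of all 16742 genes, and limma-voom 9, with 1976. In males 0 of 10 were DEGs by edgeR, DESeq2 or limma-voom, with 0 at an unadjusted p under 0.05. Adgre1, which encodes F4/80, had a female log2 fold change of 2.15 (SE 0.57, edgeR quasi-likelihood BH-adjusted p = 0.0451, 4 of 4 LKO mice above the CRE- mean). Its call was lost without female CRE- replicate 1, 2, 3 or 4 and without LKO replicate 1 or 3, with edgeR BH-adjusted p-values up to 0.189, 4 of 4 or 3 of 3 LKO mice above the CRE- mean, and a log2 fold change of 1.21 without LKO replicate 1. It was also lost with each sex fitted alone. The most abundant marker was Cd5l, and none was at 0 in any library. In bulk liver, more or fewer cells of a type and more or less RNA per cell cannot be told apart, and the part of macrophages in the Hmox1 values was not tested.

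**Figure D3:**
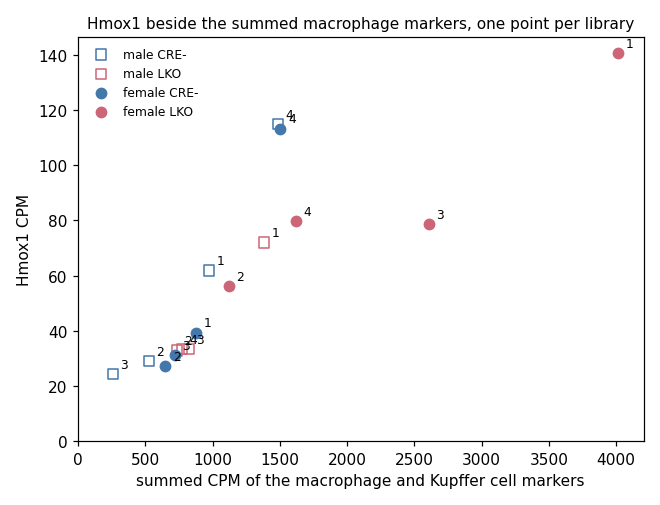
CPM of Hmox1 (vertical axis) against the summed CPM of 10 macrophage and Kupffer cell markers (horizontal axis), with 1 point per library; squares are males, circles females, blue CRE- and red LKO, and digits are replicate numbers. Female LKO replicate 1 is highest on both axes, and the replicates 4 of both CRE- groups lie above the other controls on both.

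The LKO effect was also compared between the sexes. No gene passed the threshold for this difference in edgeR's quasi-likelihood test (0%), while 2672 genes (16%) had an unadjusted p under 0.05, and DESeq2 called 371 and limma-voom 29. Without male LKO replicate 1 edgeR called 14 genes, and the number was also 14 without female LKO replicate 3, 10 when female LKO replicate 2 was left out, and 2 without either female LKO replicate 4 or male CRE- replicate 2. Of the 9 NRF2 genes 0 were DEGs by edgeR, DESeq2 or limma-voom, and 1, Gclc, had an unadjusted p under 0.05. Gclc was higher in LKO in males and lower in females by its estimates, and the unadjusted p was under 0.05 in each of the 16 fits that left out 1 library, with log2 differences of -1.36 to -0.89. Hmox1 had a sex difference of 1.18 (SE 0.72, edgeR quasi-likelihood BH-adjusted p = 0.413, LKO above the CRE- mean in 1 of 4 males and 4 of 4 females). For the other 7 genes the sex difference lay between -0.78 for Nqo1 and 0.18 for Slc7a11. When male LKO replicate 1 was left out it was 0.0363 for Nqo1, 2.95 for Slc7a11, 0.55 for Srxn1 and 1.57 for Hmox1, and 2 of the 9, Gclc and Slc7a11, had an unadjusted p under 0.05 by edgeR. Estimates had opposite signs in the sexes for Gclc, Hmox1 and Txnrd1, and none passed the test of the difference. Without male CRE- replicate 4 the male Hmox1 estimate was 0.16, and without female LKO replicate 1 the female Txnrd1 estimate was 0.0494, each then above 0 in both sexes.

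CRE- females were set against CRE- males for the level without the knockout. Of all genes 154 (0.92%) were DEGs, and of the 9 NRF2 genes 0 were DEGs by edgeR, DESeq2 or limma-voom. An unadjusted p under 0.05 was found for 2 of the 9, Nqo1 and Slc7a11, against 12.7% of all genes. Nqo1 was higher in CRE- females, with a log2 difference of 1.02 (SE 0.40, edgeR quasi-likelihood BH-adjusted p = 0.296, 4 of 4 females above the male mean), where 3 of 4 females were above every male control. Slc7a11 was lower in CRE- females, with a log2 difference of -3.27 (SE 1.25, edgeR quasi-likelihood BH-adjusted p = 0.288, 4 of 4 females below the male mean). All 4 CRE- females were below all 4 CRE- males for Slc7a11, a separation found in 3.17% of all genes, and 0 of 9 genes had every female above every male, against 4.37%. The male Nqo1 value of LKO replicate 1, 49.0 CPM, was also above all 8 females, whose highest was 33 CPM.

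A list of 40 other known NRF2 targets was counted in the same way. Of these, all tested, 1 rose and 0 fell in male LKO mice by edgeR, against 0.454% of all genes. DESeq2 called 3, against 339 of all 16742 genes, and limma-voom 2, against 148. An unadjusted p under 0.05 was found for 12 higher and 1 lower, against 9.53% of all genes. The male log2 fold changes of the 40 were above 0 for 34, against 49.1% of all genes, with a median of 0.44 against -0.01 over all genes. Without male LKO replicate 1, 27 of 40 were above 0, the median was 0.26, and 5 higher and 1 lower had an unadjusted p under 0.05. In female LKO mice 2 rose and 0 fell by edgeR, against 4.24% of all genes. DESeq2 and limma-voom called 5 each, against 1816 and 1976 of all 16742 genes. An unadjusted p under 0.05 was found for 5 higher and 5 lower in females, against 21.4% of all genes. Female log2 fold changes were above 0 for 22 of 40, against 53.1% of all genes, and the median was 0.13 against 0.04 over all genes. Osgin1, an oxidative stress-induced growth inhibitor, rose in both sexes. Osgin1 was at 143, 96.8, 86.6 and 137 CPM in male CRE- mice 1 to 4 and at 535, 253, 601 and 288 CPM in male LKO mice 1 to 4, with every LKO mouse above every control. Its male log2 fold change was 1.86 (SE 0.30, edgeR quasi-likelihood BH-adjusted p = 0.00930, 4 of 4 LKO mice above the CRE- mean). The call held without LKO replicate 1, with a log2 fold change of 1.70, and was lost without CRE- replicate 3, where the BH-adjusted p was 0.0558 by the same edgeR quasi-likelihood test with 4 of 4 LKO mice above every control. Female Osgin1 was at 188, 125, 138 and 88.5 CPM in female CRE- mice 1 to 4 and at 288, 317, 405 and 272 CPM in female LKO mice 1 to 4, again with no overlap. The female log2 fold change was 1.25 (SE 0.30, edgeR quasi-likelihood BH-adjusted p = 0.0308, 4 of 4 LKO mice above the CRE- mean). That call was lost without female CRE- replicate 2, 3 or 4 and without LKO replicate 1 or 3, with edgeR BH-adjusted p-values up to 0.103, and with each sex fitted alone, where the edgeR BH-adjusted p was 0.0559, all LKO mice being above all controls each time.

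Gpx2, a glutathione peroxidase mostly of gut epithelium, was the other of the 40 that rose in females. Its reads numbered 10, 0, 6 and 0 in female CRE- mice 1 to 4 and 56, 130, 28 and 636 in female LKO mice 1 to 4. All LKO mice were above the controls, and LKO replicate 4 held most of the reads. The log2 fold change was 5.96 (SE 1.59, edgeR quasi-likelihood BH-adjusted p = 0.0459, 4 of 4 LKO mice above the CRE- mean). It was 4.18 without LKO replicate 4, and the call was lost without any of the 4 CRE- mice and without LKO replicate 1 or 4, with edgeR BH-adjusted p-values up to 0.144 and all LKO mice above the controls each time. It was also lost with each sex fitted alone (edgeR BH-adjusted p = 0.0716, 4 of 4) and in limma-voom (BH-adjusted p = 0.0731, 4 of 4). By subgroup, the 17 glutathione genes held this 1 female DEG by edgeR, while DESeq2 and limma-voom called 3 each in females, and all 3 tools called 0 in males. Of all 16742 genes, edgeR called 0.454% in males and 4.24% in females, DESeq2 339 and 1816, and limma-voom 148 and 1976. At an unadjusted p under 0.05, 5 of the 17 were higher and 1 lower in males, against 9.53% of all genes, with a median of 0.58. Without male LKO replicate 1 there were 0 higher and 1 lower, with a median of 0.23. In females 3 of the 17 were higher and 2 lower, against 21.4% of all genes, with a median of 0.17. The 15 detoxification and iron genes held Osgin1 in each sex by edgeR, while DESeq2 called 3 in males and 1 in females and limma-voom 2 and 1. Male estimates were above 0 for 15 of 15 of them (13 of 15 without male LKO replicate 1), against 49.1% of all genes, and female ones for 12 of 15, against 53.1%. At an unadjusted p under 0.05, 7 of the 15 were higher in males (5 without male LKO replicate 1), against 9.53% of all genes. In females 1 of the 15 was higher and 1 lower, against 21.4%. The 3 thioredoxin genes and the 5 genes of NADPH supply had 0 DEGs in either sex by edgeR, and DESeq2 and limma-voom each called 1 of the 5 in females and 0 otherwise. Prdx1, a peroxiredoxin, had log2 fold changes of 0.38 (SE 0.28) in males and -0.34 (SE 0.28) in females, and Prdx6 of -0.11 (SE 0.34) and -0.75 (SE 0.34). Me1, the NADP-dependent malic enzyme, had -0.32 (SE 0.45) and -1.32 (SE 0.46), and Tkt, the transketolase of the pentose phosphate pathway, 0.27 (SE 0.20) and -0.14 (SE 0.20). At an unadjusted p under 0.05, females had 1 lower of the 3 thioredoxin genes and 1 higher and 1 lower of the 5 NADPH genes. Males had 0 in both lists, and the shares of all genes were 21.4% in females and 9.53% in males.

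Regulators of NRF2 did not pass the test. Of 10 genes, including the ligase subunit Cul3, the small MAF partners and the repressor Bach1, 0 were DEGs in either sex by edgeR. With an unadjusted p under 0.05, 1 in males and 2 in females were higher, against 9.53% and 21.4% of all genes. The male count was 0 higher and 1 lower without male LKO replicate 1. DESeq2 called 2 and limma-voom 1 in females, and 0 each in males. Sqstm1, the p62 adaptor that sequesters KEAP1, had log2 fold changes of 0.21 (SE 0.16) in males and -0.03 (SE 0.16) in females. Nfe2l1, the relative of NRF2 that drives proteasome genes, had values of 0.16 (SE 0.19) and 0.16 (SE 0.19). Antioxidant enzymes that are not counted as NRF2 targets here gave 0 of 17 DEGs in males by edgeR, DESeq2 or limma-voom, with 1 higher at an unadjusted p under 0.05, against 9.53% of all genes. In females 1 of 17 was a DEG by edgeR and by DESeq2 and 2 by limma-voom, against 4.24% of all genes by edgeR, and an unadjusted p under 0.05 was found for 1 higher and 3 lower, against 21.4%. The gene called by edgeR was Cat, the catalase of peroxisomes, at 2045, 2793, 2861 and 2280.3 CPM in female CRE- mice 1 to 4 and 938, 1850.0, 1508 and 1002 CPM in female LKO mice 1 to 4. Every female LKO mouse was below every control, and the log2 fold change was -0.91 (SE 0.24, edgeR quasi-likelihood BH-adjusted p = 0.0433, 4 of 4 LKO mice below the CRE- mean). The call was kept in 1 of 8 fits with a female library left out, that without LKO replicate 2, and edgeR BH-adjusted p-values reached 0.136 in the others, with every LKO mouse below every control, while the log2 fold change stayed between -1.12 and -0.76. It was also lost with no filter on low counts (edgeR BH-adjusted p = 0.0728, 4 of 4 LKO mice lower) and with each sex fitted alone (edgeR BH-adjusted p = 0.126, 4 of 4). It was kept by DESeq2 (BH-adjusted p = 0.00349, 4 of 4), limma-voom (BH-adjusted p = 0.0104, 4 of 4) and edgeR with RLE scaling (BH-adjusted p = 0.0457, 4 of 4) or halved counts (BH-adjusted p = 0.0393, 4 of 4). Female estimates were above 0 for 3 of these 17 genes, with a median of -0.28, and male ones for 13 of 17, with a median of 0.20. Of 7 hepatocyte markers 0 had a female estimate above 0, with a median of -0.55, and 3 a male one, with a median of -0.00174. Of all genes, 53.1% had a female estimate above 0 and 49.1% a male one. The 9 genes of haem and iron handling, of which Hpx and Hp were the most abundant, had 0 DEGs in either sex by edgeR, DESeq2 or limma-voom, with 2 higher in males and 3 higher in females at an unadjusted p under 0.05, against 9.53% and 21.4% of all genes. Hpx, haemopexin, had log2 fold changes of -0.72 (SE 0.34) in males and 0.84 (SE 0.34) in females, and Hp, haptoglobin, of -0.42 (SE 0.35) and 0.85 (SE 0.36).

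Genes of the ATF4 response to amino acid shortage were also counted. In each sex 7 of 14 rose and 0 fell by edgeR, against 0.454% of all genes called in males and 4.24% in females. DESeq2 called 10 and limma-voom 9 in males, and 8 and 9 in females. At an unadjusted p under 0.05, 13 were higher and 0 lower in males, against 9.53% of all genes, and 9 higher and 0 lower in females, against 21.4%, with medians of 2.13 in males and 1.39 in females. Without male LKO replicate 1, 5 of 14 rose in males, with a median of 1.99. Asns, asparagine synthetase, was at 0.527, 0.490, 0.468 and 0.854 CPM in male CRE- mice 1 to 4 and at 87.9, 44, 29.5 and 26.4 CPM in male LKO mice 1 to 4. Every male LKO mouse was far above every control, and the log2 fold change was 6.32 (SE 0.68, edgeR quasi-likelihood BH-adjusted p = 0.000425, 4 of 4 LKO mice above the CRE- mean). In females Asns was at 1.91, 0.467, 0.287 and 0.214 CPM in female CRE- mice 1 to 4 and at 20.7, 12.9, 24.8 and 7.58 CPM in female LKO mice 1 to 4, also without overlap, and the log2 fold change was 4.50 (SE 0.62, edgeR quasi-likelihood BH-adjusted p = 0.00274, 4 of 4 LKO mice above the CRE- mean). Psat1 and Phgdh, enzymes of serine synthesis, also rose in both sexes. Psat1 had log2 fold changes of 5.07 (SE 0.63) in males and 3.64 (SE 0.59) in females, with edgeR BH-adjusted p-values of 0.00132 (4 of 4 LKO mice above the CRE- mean) and 0.00646 (4 of 4 LKO mice above the CRE- mean). Phgdh had 4.32 (SE 0.46) and 2.15 (SE 0.42), with edgeR BH-adjusted p-values of 0.000425 (4 of 4 LKO mice above the CRE- mean) and 0.0166 (4 of 4 LKO mice above the CRE- mean). Its female call was lost without CRE- replicate 2, 3 or 4, with edgeR BH-adjusted p-values up to 0.0695 and 4 of 4 LKO mice higher. Slc3a2 encodes the heavy chain that pairs with xCT at the membrane. Male Slc3a2 was at 39.5, 43, 25.1 and 47.1 CPM in male CRE- mice 1 to 4 and at 149, 83.8, 59.2 and 72.1 CPM in male LKO mice 1 to 4, with no overlap, and its log2 fold change was 1.23 (SE 0.27, edgeR quasi-likelihood BH-adjusted p = 0.0573, 4 of 4 LKO mice above the CRE- mean). Without LKO replicate 1 the male value was 0.87. Female Slc3a2 was at 51.3, 53.8, 49.6 and 74.1 CPM in female CRE- mice 1 to 4 and at 104, 69, 75.7 and 67.9 CPM in female LKO mice 1 to 4, with an overlap through CRE- replicate 4, and its log2 fold change was 0.47 (SE 0.27, edgeR quasi-likelihood BH-adjusted p = 0.335, 4 of 4 LKO mice above the CRE- mean).

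Shared variation among the 9 genes was described by correlating deviations of log2 CPM from the group means over the 16 libraries, which share depth and processing. Of 36 pairs of the 9 genes, 27 had r above 0 and 11 had r above 0.5, with a median of 0.24. Counts over pairs of all genes are not given here, so these numbers have no background beside them. Without male LKO replicate 1, 7 of 36 were above 0.5 and the median was 0.10. The highest pair was Nqo1 and Srxn1 (r = 0.84, n = 16, and 0.62 over the 15 libraries without male LKO replicate 1), followed by Gclm and Txnrd1 (r = 0.77, n = 16, and 0.76 without that library). Slc7a11 and Nqo1 had r = 0.69 over 16 libraries and -0.16 over the 15. Over the 15 libraries the highest pair was Keap1 and Srxn1 (r = 0.80, and 0.51 over 16). Other pairs went the opposite way, the lowest being Gclm and Hmox1 (r = -0.52, n = 16, and -0.70 over the 15), and Hmox1 and Txnrd1 had r = -0.32 and -0.69. Some pairs of the 9 genes thus had r above 0 and others below 0, with no background to set them against. The values for Slc7a11 depended on male LKO replicate 1.

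The same measure over all genes tested named genes most like each of the 9. Nearest to Hmox1 were Pilra (r = 0.97), Cfp (r = 0.96) and Bin3 (r = 0.96), n = 16. Pilra encodes a receptor of myeloid cells and Cfp encodes properdin, a complement factor made by leukocytes, and the values without male LKO replicate 1 were between 0.96 and 0.97. Among those nearest to Nqo1 were Abcc4 (r = 0.92) and Sult2a2 (r = 0.90), which had r of 0.72 and 0.65 without that library. For Slc7a11 they were Sult2a1 (r = 0.90), Sult2a2 (r = 0.82) and Abcc4 (r = 0.81), and these were 0.38, 0.05 and 0.12 without it. Abcc4, an export pump that is among the 40 other NRF2 targets, was at 124, 11.6, 7.65 and 8.51 CPM in male LKO mice 1 to 4, at 6.16 to 18.1 CPM in male CRE- mice and at 12.7 to 38 CPM in females. Its male log2 fold change was 1.93 (SE 0.72, edgeR quasi-likelihood BH-adjusted p = 0.362, 2 of 4 LKO mice above the CRE- mean), and it was -0.11 without LKO replicate 1. The genes nearest to Srxn1 were Akr1b7 (r = 0.90), Sema3b (r = 0.90) and Vasn (r = 0.89), and to Txnrd1 Wdr3 (r = 0.90), Fmo2 (r = 0.90) and Gm36231 (r = 0.84). For Gclc they were Amotl2 (r = 0.88), Gm14326 (r = 0.88) and Sgms2 (r = 0.86), and for Gclm Rnf13 (r = 0.93), Akr1d1 (r = 0.91) and Tom1l1 (r = 0.89). Those of Keap1 included Tuba1c (r = 0.87) and Pgk1 (r = 0.87), and those of Nfe2l2 Glod5 (r = 0.87), B230208H11Rik (r = 0.86) and Rnf43 (r = 0.85).

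Markers of other cell types were counted in both sexes, and in no list did a marker pass the test of the sex difference by edgeR. The shares of all genes to set beside these counts are 0.454% called and 9.53% at an unadjusted p under 0.05 in males, and 4.24% and 21.4% in females. Recruited macrophage markers had 2 of 7 higher in females by edgeR (Trem2 and Cd9), 5 by DESeq2, 4 by limma-voom and 5 at an unadjusted p under 0.05, and 0 in males by edgeR, DESeq2 or limma-voom, where 1 was higher at an unadjusted p under 0.05 (0 higher and 1 lower without male LKO replicate 1, with a median of -1.04 in place of 0.25), with summed CPM of 139, 76.5, 77.1 and 89.1 in female CRE- mice 1 to 4 and 162, 217, 157 and 221 in female LKO mice 1 to 4, and Spp1 as the most abundant. Neutrophil markers had 2 of 5 tested higher in females by edgeR (Retnlg and Mmp8), 5 by DESeq2, 2 by limma-voom and 5 at an unadjusted p under 0.05, with sums of 26.7, 15, 11.9 and 14.8 and 81.4, 31.6, 49.2 and 493, S100a9 as the most abundant, and Ly6g at 0 in 9 of 16 libraries and not tested. In males 0 of 5 were DEGs by edgeR or limma-voom and 1 by DESeq2, with 4 lower at an unadjusted p under 0.05. Genes of proliferating cells had 4 of 5 higher in females by edgeR (Top2a, Cdk1, Ccnb1 and Birc5), 5 by DESeq2, 4 by limma-voom and 5 at an unadjusted p under 0.05, with sums of 9.60, 7.96, 4.6 and 17.3 and 76.2, 14.9, 30.2 and 31.6, Mki67 as the most abundant, and 0 DEGs in males by edgeR, DESeq2 or limma-voom, with 0 at an unadjusted p under 0.05. Endothelial markers had 1 of 6 higher in females by edgeR (Cdh5), 2 by DESeq2, 1 by limma-voom and 3 at an unadjusted p under 0.05, and 0 in males by each, with Stab2 the most abundant. Summed endothelial markers were at 239 ± 28.5 CPM (SD, n = 4) in female CRE- mice against 288 ± 54.2 CPM (SD, n = 4) in LKO mice of that sex. All 9 of these female calls were lost without CRE- replicate 2 or 3, and all but that of Cd9 without LKO replicate 1. Those of Cd9, Retnlg, Mmp8 and Top2a were also lost without CRE- replicate 1 or 4 or LKO replicate 4, those of Trem2, Cdh5 and Ccnb1 without CRE- replicate 4, those of Cdk1 and Birc5 without CRE- replicate 1, and that of Top2a without LKO replicate 3. The highest edgeR BH-adjusted p of these fits was 0.139 (Top2a without LKO replicate 1), and every log2 fold change stayed above 0. All but the call of Trem2 were also lost with each sex fitted alone, and that of Mmp8 in limma-voom. For erythroid cells, cholangiocytes, hepatocytes, stellate cells and fibroblasts, lymphocytes of the T and NK type, and B or plasma cells, 0 markers were DEGs in either sex by edgeR. DESeq2 called 1 hepatocyte marker in females and 1 erythroid marker in each sex, and limma-voom called 1 stellate cell or fibroblast marker in females, with 0 otherwise. At an unadjusted p under 0.05, the hepatocyte list had 1 of 7 lower in males and 2 of 7 lower in females, the erythroid list 6 of 7 lower in males and 1 of 7 higher in females, and the B and plasma cell list 1 of 5 higher in females, while the other 3 lists had 0. Summed hepatocyte markers were at 121198 ± 8587 CPM (SD, n = 4) in female CRE- mice against 77496 ± 18925 CPM (SD, n = 4) in LKO mice of that sex, and at 95374 ± 16388 and 81445 ± 10883 CPM (SD, n = 4) in male CRE- and LKO mice. Summed erythroid markers were at 750.0 ± 213 and 347 ± 126 CPM (SD, n = 4) in male CRE- and LKO mice, and at 552 ± 170.2 and 811 ± 614 CPM (SD, n = 4) in female CRE- and LKO mice, with 1655 CPM in female LKO replicate 4. Group means of summed CPM in male CRE-, male LKO, female CRE- and female LKO mice were 17.5, 17.5, 20.2 and 22.9 for the T and NK list, 50.3, 51.7, 43.3 and 67.7 for the B and plasma list, 387, 322, 373 and 354 for stellate cells and fibroblasts and 11.4, 14.1, 13.9 and 15.6 for cholangiocytes. The most abundant genes of these 6 lists were Alb, Ccl5, Jchain, Hbb-bs, Dcn and Sox9, and Cftr was at 0 in 2 libraries. The part of these cell types in the values of the 9 genes was not tested.

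Promoter sequences were read for letters of antioxidant and amino acid response elements. RefSeq promoters, 250 bases before to 50 after the start, were matched by symbol for 7 of the 9 genes (9 promoters), from a table on GRCm38.p6, and each was placed on GRCm39 by exact match. Gclc and Hmox1 were not matched. TGACNNNGC, the core of the antioxidant response element, was searched on both strands and was found in 4 of the 9 promoters (Nfe2l2, Srxn1, Gclm and 1 of 3 of Txnrd1), against 12.4% of 32841 promoters in the table. TGACTCA, the AP-1 letters that overlap such elements in many promoters, was found in 1 of 9 (Srxn1), against 5.2%, and TGATGCAA, a form of the amino acid response element that ATF4 complexes bind, in 1 of 9 (Slc7a11), against 0.895%. In Slc7a11 it stood at both -66 and -47 from the start, on opposite strands, and in Srxn1 TGACTCA stood at -102 and -45 and the antioxidant core at 28. A match is a description of letters and not a site shown to be bound. The sequences of this paragraph show these letters in capitals, on the strand of the gene, for Slc7a11 as the gene with the highest estimates, for Srxn1 as the promoter with most matches and for Gclm as the gene with separate male groups in CPM.
Slc7a11, chr3:50398013-50398312, minus strand: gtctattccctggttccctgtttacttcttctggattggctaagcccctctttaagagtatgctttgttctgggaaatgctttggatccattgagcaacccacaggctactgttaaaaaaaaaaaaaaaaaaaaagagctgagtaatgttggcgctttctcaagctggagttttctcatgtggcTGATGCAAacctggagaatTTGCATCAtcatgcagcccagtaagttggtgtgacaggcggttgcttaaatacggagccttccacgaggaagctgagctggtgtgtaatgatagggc
Srxn1, chr2:151947194-151947493, plus strand: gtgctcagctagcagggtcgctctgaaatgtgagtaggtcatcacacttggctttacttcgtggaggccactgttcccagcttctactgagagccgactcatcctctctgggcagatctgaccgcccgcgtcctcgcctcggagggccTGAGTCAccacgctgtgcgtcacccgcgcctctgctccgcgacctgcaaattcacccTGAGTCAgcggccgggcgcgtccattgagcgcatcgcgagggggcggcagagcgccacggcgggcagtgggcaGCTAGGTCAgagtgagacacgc
Gclm, chr3:122038956-122039255, plus strand: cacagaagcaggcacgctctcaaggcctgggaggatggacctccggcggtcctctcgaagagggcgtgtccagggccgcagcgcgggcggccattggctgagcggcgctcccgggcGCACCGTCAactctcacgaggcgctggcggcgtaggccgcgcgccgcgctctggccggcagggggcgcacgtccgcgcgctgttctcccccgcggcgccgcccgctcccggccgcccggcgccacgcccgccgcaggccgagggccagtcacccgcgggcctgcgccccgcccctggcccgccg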

How the data were processed

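Counts per gene were deposited by the authors, who aligned paired-end, poly-A-selected liver RNA reads to GRCm39 with STAR 2.7.1a and counted them with featureCounts of Subread 2.0.6. Of the counts from 1 to 20, 81.4 to 87.9% were even in each library, so both mates of a pair appear to be counted. From these counts CPM, TPM and all tests were computed here. The 16 libraries formed 4 groups of 4, fitted together by edgeR 4.0.16 in R 4.3.3 with filterByExpr at a minimum count of 10, TMM scaling and the quasi-likelihood test. TPM was computed without the TMM factors, which were 0.807 to 0.953 in female CRE- and 1.01 to 1.13 in female LKO libraries. Adjustment by the Benjamini-Hochberg method covered all 16742 genes tested. The SE is the absolute log2 fold change over the square root of F, and log2 CPM for correlations had a prior count of 2. The alternatives were DESeq2 1.42.0, limma 3.58.1 (voom with sample quality weights), RLE scaling, no filter, each sex alone, a block on replicate number and leaving out each library. Halved counts, summed read pairs of Slc7a11 and correlations without male LKO replicate 1 were added after the data were seen. The code was tested on simulated counts. Intervals of read pair ratios cover counting error only. Other steps used Python 3.11.15, numpy 2.4.6, scipy 1.17.1, pandas 2.3.3 and matplotlib 3.10.9.

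The 9 genes and the lists of 8 pathways and 11 cell types were chosen with earlier results of these data known. Genes are named by a rule: the 9 genes, the 3 genes nearest to each, up to 3 DEGs per direction of each pathway list (the 2 most abundant genes where none passed), the most abundant marker of each cell type, markers at 0, and Gcgr, Xist and Ddx3y. DEGs among the cell type markers, Slc3a2 and Cyp4a12a fall outside the rule and were chosen after their values were seen, as were the genes named beside other counts of 5 or fewer. Some genes that the rule names are not reported here.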

Additional observations from a re-analysis of the deposited data

Results flagged for a closer look

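Dixon's ratio, the gap between the most extreme value and its neighbour over the range of the group, exceeded its critical value in 8 of the 36 groups of 4 libraries (9 genes in 4 groups), where chance gives about 1 in 20. In each case the library was the highest of its group. Male LKO replicate 1 stood apart for Hmox1 (ratio 0.982, 72.0 CPM), Nqo1 (0.942, 49.0 CPM), Srxn1 (0.937, 106 CPM) and Slc7a11 (0.933, 18.3 CPM). Female CRE- replicate 4 stood apart for Keap1 (0.909, 83.7 CPM) and Hmox1 (0.861, 113 CPM). Male CRE- replicate 2 stood apart for Nqo1 (0.899, 17.6 CPM), and female LKO replicate 4 for Srxn1 (0.850, 101 CPM). The cause of these values was not tested.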

How the results depend on the processing

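Of 234 values under other settings, 229 kept their direction and their side of the threshold, 3 newly passed the threshold and 2 reversed, and of 360 values with 1 library left out, 320 were the same and 40 reversed. DESeq2 gave 339 DEGs in males, 1816 in females, 371 for the sex difference and 509 between CRE- females and CRE- males. It called 1 of the 9 genes in each sex, Slc7a11, with log2 fold changes of 3.88 (male) and 4.23 (female). Limma-voom gave 148, 1976, 29 and 329 DEGs, and the Keap1 sex difference was -0.11. Each sex alone gave 119 female DEGs, and no filter gave 12 for the sex difference. With 1 library left out, DEGs ranged from 26 to 49 in males, 87 to 1310 in females, 0 to 14 for the sex difference and 68 to 149 between controls, and DEGs among the 9 genes from 0 to 0. Log2 fold changes that reversed ranged from -0.82 to 0.16 for Hmox1, -0.00248 to 1.02 for Nqo1 and -0.15 to 0.47 for Srxn1 in males, and from -0.12 to 0.20 for Nqo1 and -0.16 to 0.0494 for Txnrd1 in females. For the sex difference they ranged from -0.0601 to 0.10 for Keap1, -1.002 to 0.0363 for Nqo1, -0.21 to 2.95 for Slc7a11 and -0.28 to 0.55 for Srxn1. Between controls they ranged from -0.11 to 0.23 for Gclc, -0.00102 to 0.18 for Gclm, -0.86 to 0.46 for Hmox1, -0.0201 to 0.11 for Keap1, -0.11 to 0.0193 for Nfe2l2 and -0.11 to 0.0934 for Srxn1. The cause was not tested. In the shallowest library 1 CPM was 34.6 reads, and Slc7a11 had 0 to 4 reads in female CRE- libraries, so its female ratio is imprecise.

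The labels give same-numbered libraries no link beyond the number, and the values do not settle whether one exists. Over 24 pairs their r ranged from -0.250 to 0.332, with 11 above 0.1 (6 of the 8 pairs of LKO and CRE- libraries of a sex), and 10 of 16 libraries correlated best with their own number. A replicate block gave 1244 female DEGs in place of 710 and called 1 of the 9 genes in females, Slc7a11, with a log2 fold change of 4.57 (edgeR BH-adjusted p = 0.0257 in place of 0.0709, 4 of 4 LKO mice above the CRE- mean). The Srxn1 difference between controls was -0.00655 with the replicate block.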
